A study of Mus musculus with 19 samples.

Results

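The comparison described here set the tumours of tag family RMH4 against those of tag family RMH35, 2 groups of liver tumours from one mouse model. Tumours were assigned to a family from the identifier tags in the sample labels: 3 tumours (04 to 06) carried an RMH4 tag and 5 (09 to 13) an RMH35 tag. These 8 were drawn from 10 tumours that could be matched to a column of the count table, of 13 tumours and 19 samples in the series. The other 2 matched tumours (07 and 08, family RMH18) were left out of the test and are given only as side values.

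All 8 tumours shared one genotype and one treatment. The mice were males with Ctnnb1tm1Mmt (HET) and Gt(ROSA)26Sortm1(MYC)Djmy (HOM), which on recombination yield a stabilised β-catenin and human MYC. They had received 640000000 genome copies per mouse of AAV8.TBG.PI.Cre.rBG, an adeno-associated virus that expresses Cre from a hepatocyte-specific promoter, as young adults, and were of mixed background. Whole frozen tumours were taken at the end point and their poly(A) RNA was sequenced. The families therefore differed by no labelled genotype, dose or treatment. The age at sampling and the hour of day at which a tumour was taken were not given in the sources used here.

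What a tag stands for was not stated in the labels. Family RMH4 held 2 tags, RMH4_5b (tumour 04) and RMH4_5c (tumours 05 and 06), and family RMH35 held 2, RMH35_1b (tumours 09 and 10) and RMH35_1c (tumours 11 to 13). If a tag marks 1 mouse, the comparison rested on 2 mice a family. The p-values measured the spread between these tumours, which may be tumours of the same animals.

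Tumours of this kind arise from hepatocytes in which β-catenin, the nuclear effector of Wnt signalling, and MYC, a transcription factor of growth and ribosome production, are switched on together. The liver also runs a circadian clock: Bmal1 with Clock or Npas2 binds E-box sequences and drives the Per, Cry and Nr1d genes, whose products feed back to repress this activity, and Dbp, Tef, Hlf and their antagonist Nfil3 act through D-box sequences. The Cyp2c cytochromes P450 oxidise fatty acids, retinoids and drugs, and most of them lie in one cluster of close relatives.

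Gene totals ran from 14281857 to 17217656 counts in RMH4 and from 14161656 to 36964427 in RMH35 (exact permutation test over the 56 assignments of tumours, two-sided p = 0.286, adjusted over 6 library measures p = 0.429). Tumours of RMH4 had on average 746 fewer genes with a count (p = 0.0357, the smallest this design allows, adjusted p = 0.107). Rpph1, the RNA of ribonuclease P, which has no poly(A) tail, was at 4.31, 40.3 and 30.1 CPM (counts scaled to a common library total) in tumours 04, 05 and 06 and at 0.775 to 3.03 CPM in RMH35 (exact test p = 0.0357, adjusted p = 0.107). Tumours 05 and 06, with tumour 07 of RMH18 at 50.7 CPM, formed a high Rpph1 set that may be a library batch, though the labels name none. No RMH35 tumour belonged to that set, so the set and the family could not be told apart within it, and within the low set the only comparison was tumour 04 against RMH35. The summed level of 8 hepatocyte markers was 29831 to 43910 CPM in RMH4 and 29199 to 40690 CPM in RMH35, with no marker at 0. Across genes, Pearson's r of log2 CPM was 0.957 to 0.965 for the 3 pairs within RMH4, 0.926 to 0.970 for the 10 within RMH35 and 0.905 to 0.959 for the 15 between families, a description since genes are not independent.

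Of 14674 genes tested, 6 passed an adjusted p of 0.05 (edgeR quasi-likelihood test, Benjamini-Hochberg), 0.0409% of the genes. Of these, 5 rose in RMH4 (0.0341%) and 1 fell (0.00681%). At an unadjusted p of 0.05, 2405 genes passed (16.4%), of which 1185 lay higher (8.08%) and 1220 lower (8.31%) in RMH4. The 3 RMH4 values lay wholly outside the 5 RMH35 values for 1397 genes (9.52%), 602 of them higher (4.1%) and 795 lower (5.42%). DESeq2 called 609 of 16590 genes (3.67%), with 312 higher (1.88%) and 297 lower (1.79%). The count moved with the tumours included: 547 genes were called without tumour 09, 146 without tumour 04, 2 without tumour 05, 2 without tumour 11 and 3 without tumour 13. With the pair of tag RMH4_5c left out, or with a term for the Rpph1 set, edgeR called 0, with 858 and 1124 genes at an unadjusted p of 0.05.

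**Figure D1:**
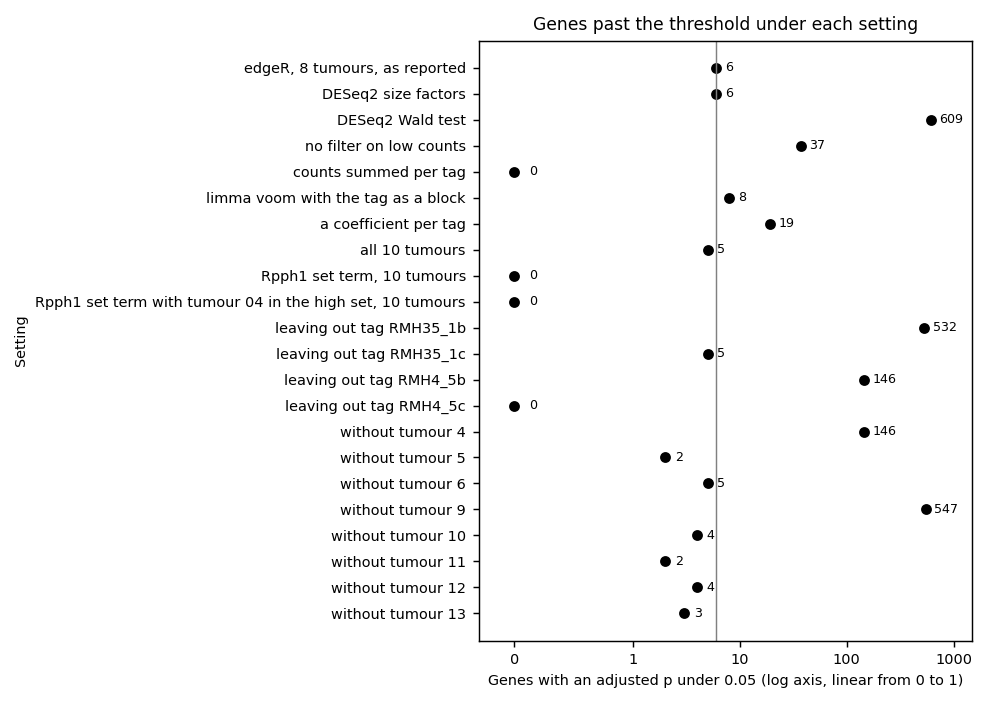
Number of genes called (adjusted p under 0.05) between RMH4 and RMH35 under each setting, on a log axis that is linear from 0 to 1, with a vertical line at the 6 genes of the reported test. The reported test called 6 genes, leaving out tumour 09 gave 547, and the fits with a term for the Rpph1 set gave 0.

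Cyp2c39, a cytochrome P450 of the arachidonic acid and retinoid hydroxylating Cyp2c group, rose in RMH4. It was at 355, 578 and 519 CPM in tumours 04, 05 and 06. In RMH35 it was at 5.88, 2.82, 6.88, 15.7 and 1.88 CPM in tumours 09 to 13. Every RMH4 tumour lay above every RMH35 tumour, and tumours 07 and 08 of RMH18, at 19.3 and 4.88 CPM, lay near the RMH35 level. The means were 484 ± 115 CPM (SD, n = 3) and 6.63 ± 5.47 CPM (SD, n = 5), a log2 fold change of 6.19 ± 0.64 (SE) or 72.8-fold (edgeR adjusted p = 0.0168). The log2 fold change was 6.04 without tumour 05 (adjusted p = 0.0902), 6.2 without tumour 11 (0.0776), 6.25 on counts summed per tag (0.343) and 5.74 without tag RMH4_5c (0.238), which left 1 RMH4 tumour, assumed to vary like the RMH35 tumours. With a term for the Rpph1 set the log2 fold change was 5.41 (adjusted p = 0.167). Cyp2c39 was the single gene of the naming rule for large changes, since no other called gene combined a symbol with a mean of at least 4 CPM.

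Cyp2c39 spans chr19:39347346-39569568 in the RefSeq annotation of GRCm38.p6. That span contains the whole of Cyp2c38 (chr19:39389556-39463103), a close relative. The counts were made per Ensembl gene and not on these spans, and how reads were assigned between these genes was not tested. Cyp2c38 was at 200 to 234 CPM in RMH4 and at 95.0 to 350 CPM in RMH35 (log2 fold change 0.13 ± 0.35, edgeR adjusted p = 0.875), and its range in RMH35 covered that of RMH4.

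Of 12 Cyp2c genes tested, Cyp2c39 alone was called by edgeR, and 10 of the 12 estimates lay below 0 (median log2 fold change −1.17, against −0.02 over all genes, and −0.74 with the Rpph1 term). Cyp2c68, Cyp2c50 and Cyp2c37 were lower in RMH4 without overlap (5.42% of all genes), and DESeq2 called 1 member higher (1.88% of all genes) and 2 lower (1.79%). Cyp2c68 was at 21.6, 9.33 and 12.5 CPM in RMH4 and at 49.7, 59.9, 55.5, 92.8 and 36.1 CPM in RMH35 (−2.03 ± 0.37, edgeR adjusted p = 0.098). Its levels in tumours 07 and 08 were 52.8 and 50 CPM, within the RMH35 range. Cyp2c50 was at 4.60 to 11.7 CPM against 14.9 to 34.1 CPM (−1.65, edgeR adjusted p = 0.137), and Cyp2c37 at 24.7 to 30 CPM against 32.2 to 89.8 CPM (−1.08, edgeR adjusted p = 0.194). For Cyp2c23, the arachidonic acid epoxygenase, and Cyp2c29 the families overlapped, with estimates of −1.25 and −0.58. Cyp2c23 stood at −2.23 without tumour 06, −0.64 without tumour 12 and −0.83 without tumour 05. The levels of such near-identical genes are uncertain, as the counting may have divided their reads.

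Lrrc24, a leucine-rich repeat membrane protein gene at chr15:76715276-76722173 (GRCm38.p6), also rose. It was at 11.0, 5.49 and 3.29 CPM in RMH4 and at 0.32, 0.34, 0.0632, 0.101 and 0.287 CPM in RMH35 (log2 fold change 4.84 ± 0.56, 28.7-fold, edgeR adjusted p = 0.0327). Its highest level was in tumour 04, the RMH4 tumour with the least Rpph1, and tumours 07 and 08 were at 0.181 and 0 CPM. Its call was lost without tumour 05 (adjusted p = 0.128), 10 (0.0668), 11 (0.0776), 12 (0.0638) or 13 (0.127). Lrrc24 and the 4 genes below fell outside the naming rule and were named after their values were seen, because 6 genes in all were called.

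The other 3 genes that rose were small RNAs or had no symbol. Snord13, a small nucleolar RNA that guides acetylation of ribosomal RNA, lies at chr8:31149861-31149958 (GRCm38.p6). It had 15, 36 and 18 reads in tumours 04, 05 and 06 and 1, 3, 1, 1 and 3 reads in tumours 09 to 13, or 1.06, 2.30 and 1.10 CPM against 0.0337 to 0.146 CPM (edgeR adjusted p = 0.0356). All 5 RMH35 values were at or under a floor of 3 counts a library, so no fold is given, and the call was lost without tumour 05 (0.228), 06 (0.122), 10 (0.0668), 11 (0.133), 12 (0.0821) or 13 (0.179). Snord13 had 8 and 7 reads in tumours 07 and 08 (0.72 and 0.34 CPM), in CPM above every RMH35 tumour. With the planned term for the Rpph1 set its edgeR adjusted p was 0.357. The identifier ENSMUSG00000088595 was at 28.3, 65.6 and 48.6 CPM in RMH4 and at 1.52 to 3.45 CPM in RMH35 (4.15 ± 0.33, edgeR adjusted p = 0.00502). ENSMUSG00000065922 was at 112, 215 and 137 CPM against 3.33 to 10.5 CPM (4.35 ± 0.38, edgeR adjusted p = 0.0059). Both identifiers passed with any 1 tumour left out, at adjusted p of at most 0.033. Neither passed in the fit to all 10 tumours (0.0609 for both), on counts summed per tag (0.353 for ENSMUSG00000088595 and 0.343 for ENSMUSG00000065922) or without tag RMH4_5c (0.2 for both), and ENSMUSG00000088595 did not pass without tag RMH35_1c (0.0974). In tumour 07, of the high Rpph1 set, these identifiers stood at 77.6 and 235 CPM, and in tumour 08 at 3.92 and 9.38 CPM.

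The levels of these identifiers moved with Rpph1 in the RMH18 tumours too, and the part of the library set in their difference was not tested apart from the family. Rpph1 itself had a log2 fold change of 3.82 ± 0.63 (edgeR adjusted p = 0.093). Rmrp, the RNA of the mitochondrial RNA-processing ribonuclease, was at 2.19, 19.9 and 17.1 CPM in RMH4 and at 0.730 to 1.58 CPM in RMH35 (3.58 ± 0.59, edgeR adjusted p = 0.093). Of 6 tested RNAs without a poly(A) tail, 5 estimates lay above 0, 2 members were higher and 1 lower without overlap (9.52% of all genes either way) and 0 were called by edgeR. At an unadjusted p of 0.05 there were 5 (16.4% of all genes), and DESeq2 called 3 (3.67%). Without tumour 04 edgeR called 5 members of the list, and 146 of 15081 genes in all. Without tumour 09 it called 2 members, and 547 of 14471 genes in all. With the planned term for the Rpph1 set, the log2 fold changes of Lrrc24, ENSMUSG00000065922 and ENSMUSG00000088595 were 5.15, 3.11 and 2.71 (adjusted p = 0.275, 0.445 and 0.418). With a term in which tumour 04 counted as high, a setting chosen after seeing the data, they were −0.05, −0.28 and −0.14, and that of Cyp2c39 was 4.22 (adjusted p = 0.734). In that setting every RMH4 tumour was high and every RMH35 tumour low, so the set effect came only from tumour 07 against tumour 08. These estimates therefore rest on that single pair, in which Lrrc24 had few or no reads, and they cannot separate set from family.

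The 1 gene that fell was ENSMUSG00000097554, which the name table used here did not pair with a symbol. It had 1, 0 and 0 reads in tumours 04, 05 and 06 and 76, 108, 126, 524 and 778 reads in tumours 09 to 13 (4.86 to 20.3 CPM, edgeR adjusted p = 0.0327). Tumours 07 and 08 had 0 reads. The call was lost without tumour 05 (0.228), 06 (0.168), 11 (0.0776), 12 (0.054) or 13 (0.0668). It was also lost without tag RMH35_1c (0.0974) and on counts summed per tag (0.43). A limma fit with the tag as a block gave an adjusted p of 0.102, and the planned Rpph1 term in edgeR 0.445. By a rule of at most 3 reads in every tumour of one family and at least 1 CPM in every tumour of the other, this was the single gene absent from RMH4, and Snord13 the single one absent from RMH35.

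**Figure D2:**
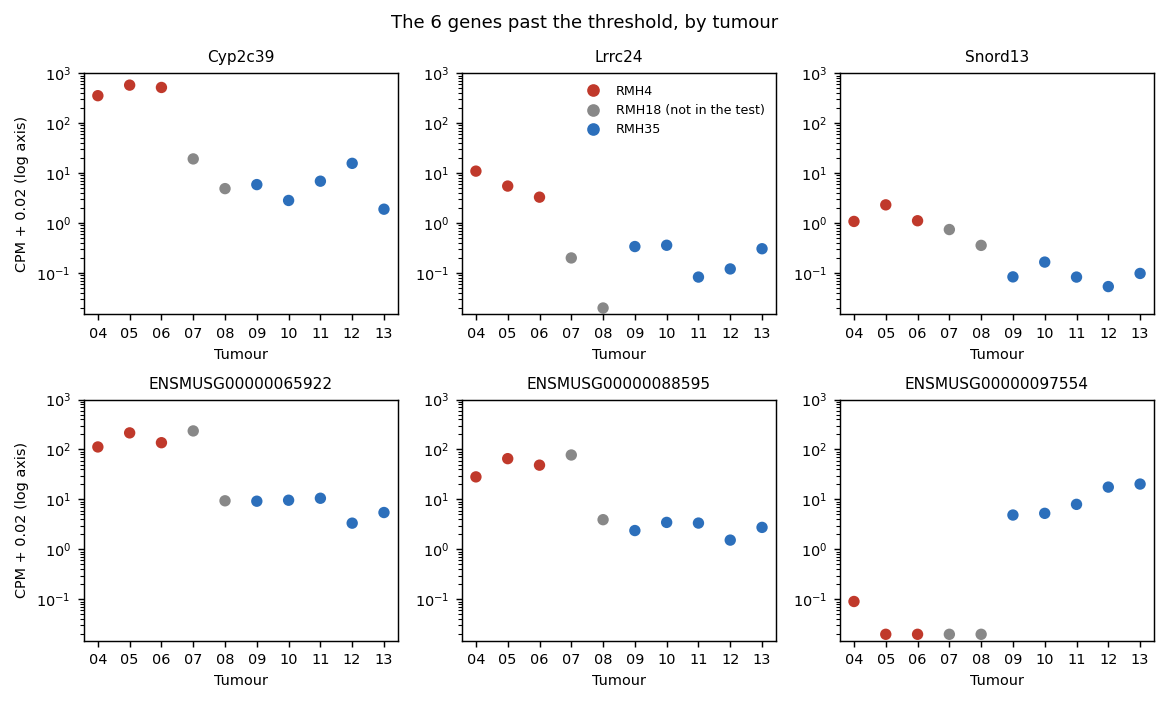
Level of each of the 6 called genes in each tumour, as CPM plus 0.02 on a log axis, with RMH4, RMH35 and the left-out RMH18 tumours in separate columns. Cyp2c39 stood at 355 to 578 CPM in RMH4 and at 1.88 to 15.7 CPM in RMH35, and ENSMUSG00000097554 was at or near 0 outside RMH35.

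Among the circadian clock genes, 0 of 18 passed edgeR at an adjusted p of 0.05, and estimates lay on both sides of 0 (10 above, median 0.28). Families did not overlap for 9 of the 18, against 9.52% of all genes, with 4 members higher (Bmal1, Npas2, Cry1 and Nfil3) and 5 lower (Dbp, Tef, Per3, Nr1d1 and Nr1d2) in RMH4. By unadjusted p, 8 lay higher and 6 lower (16.4% of all genes), and DESeq2 called 5 higher and 5 lower (3.67%). The lowest edgeR adjusted p of the list was 0.093. Without tumour 09 edgeR called 8 of the 18, and 547 of 14471 genes in all, without tumour 04 it called 1, and without tumour 05 or 06 it called 0. The list's median was −0.18 without tumour 05 and −0.54 with the Rpph1 term. Apart from Bmal1 and Clock, the clock genes were named after their values were seen.

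The sequences just before 3 clock genes are shown because they hold the elements through which the clock's activators and its D-box factors are known to act. E-boxes (CACGTG, its own reverse complement) and D-boxes (TTATGTAA, either strand) are in capitals. Sequences are from RefSeq on GRCm38.p6, 5′ to 3′ on the gene's strand, and end where the annotated gene begins. Per3 at chr4:151044708-151044915, minus strand, has D-boxes. Cry1 at chr10:85185055-85185304, minus strand, and Tef at chr15:81802423-81802672, plus strand, each have an E-box.
Per3: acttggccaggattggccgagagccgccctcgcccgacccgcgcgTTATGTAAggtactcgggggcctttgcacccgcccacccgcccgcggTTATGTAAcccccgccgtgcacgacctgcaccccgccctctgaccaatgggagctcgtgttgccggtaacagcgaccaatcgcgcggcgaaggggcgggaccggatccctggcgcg
Cry1: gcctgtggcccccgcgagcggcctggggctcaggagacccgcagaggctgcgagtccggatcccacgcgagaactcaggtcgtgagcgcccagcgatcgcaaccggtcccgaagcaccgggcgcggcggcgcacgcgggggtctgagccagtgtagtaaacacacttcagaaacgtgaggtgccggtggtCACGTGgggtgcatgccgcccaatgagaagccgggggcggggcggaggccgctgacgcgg
Tef: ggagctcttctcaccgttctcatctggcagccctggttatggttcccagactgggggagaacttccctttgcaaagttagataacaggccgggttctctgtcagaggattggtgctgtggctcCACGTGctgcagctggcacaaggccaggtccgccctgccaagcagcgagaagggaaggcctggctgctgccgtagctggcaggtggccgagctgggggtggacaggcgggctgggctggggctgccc
Over windows of at most 250 bases before each start, some of them shorter, the E-box was in 1978 of 32851 (6.02%) and in 6 of 20 windows of clock genes, those of Bhlhe41, Ciart, Cry1, Per1 and Tef. The D-box was in 269 windows (0.819%) and in 1 clock window, that of Per3, which held 2. Of the 18 genes, 15 had a window. A match describes these letters only and is not a binding site.

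Among the activators, Bmal1, the core subunit that pairs with Clock, was at 23.3, 31.0 and 24.7 CPM in RMH4. In RMH35 it was at 10.3, 5.64, 2.65, 5.56 and 9.45 CPM (1.97 ± 0.37, edgeR adjusted p = 0.0995, DESeq2 adjusted p = 0.000173). Tumours 07 and 08 were at 24.5 and 32.0 CPM, in or just above the RMH4 range. Npas2, which can stand in for Clock, was at 6.79, 4.79 and 4.69 CPM against 1.41, 0.535, 0.758, 0.168 and 0.496 CPM (3.04 ± 0.53, edgeR adjusted p = 0.098). Clock itself was at 26.3 to 29.7 CPM against 16 to 26.8 CPM, an estimate of 0.32 ± 0.18 (edgeR adjusted p = 0.399), so that its families overlapped and its estimate was the smallest of these activators.

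Among the D-box factors, Dbp, an output activator of hepatic metabolism genes, was at 2.12, 6.58 and 2.13 CPM in RMH4. It was at 23.8, 106, 85.3, 76.3 and 35.4 CPM in RMH35 (−4.17 ± 0.65, edgeR adjusted p = 0.093, DESeq2 adjusted p = 2.04e-11). As each tumour was left out in turn, its edgeR adjusted p ran from 0.00921 to 0.228. The highest RMH4 tumour lay below the lowest RMH35 tumour, tumour 09, which was also the one nearest to RMH4 for Bmal1, Npas2, Nfil3, Tef and Per3. Tef was at 30.3, 53.3 and 25.8 CPM against 75.8, 212, 213, 175 and 109 CPM (−2.10 ± 0.41, edgeR adjusted p = 0.104). Nfil3, the repressor that competes for the same element, was at 55.5, 253 and 115 CPM against 44.7, 23.2, 18.9, 16.8 and 30.5 CPM (2.40 ± 0.46, edgeR adjusted p = 0.103). Hlf, the remaining activator of the group, was at 15.8 to 24 CPM against 11.2 to 40.5 CPM, overlapping.

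Among the feedback repressors, Per3 was at 0.848, 4.66 and 1.77 CPM in RMH4 and at 5.43, 28.3, 23.7, 30.8 and 12.6 CPM in RMH35 (−3.05 ± 0.70, edgeR adjusted p = 0.137). Nr1d1, the nuclear receptor REV-ERBα that represses Bmal1, was at 27.2, 56.5 and 37.7 CPM against 91.0, 177, 106, 84.3 and 77.2 CPM (−1.41 ± 0.33, edgeR adjusted p = 0.137). Its relative Nr1d2 was at 15.8, 34.7 and 16.3 CPM against 35.2 to 61.6 CPM (−1.22, edgeR adjusted p = 0.149), a gap of less than 1 CPM between tumours 05 and 09. Cry1 went the other way, at 5.02, 9.07 and 12.2 CPM against 1.65 to 4.24 CPM (1.42 ± 0.37, edgeR adjusted p = 0.159). Per2 was at 5.66 to 9.39 CPM against 8.25 to 26.1 CPM and Per1 at 31.7 to 128 CPM against 23 to 40.7 CPM, both with overlap. Within the loop, the Per and Cry genes therefore did not lie on one side.

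The RMH18 tumours sat with RMH4 for these genes. For 8 of the 9 clock genes without overlap, tumours 07 and 08 both lay outside the RMH35 range and within or beyond that of RMH4, Nr1d1 being the exception. Over all 1397 genes without overlap, both lay with RMH4 for 147 (10.5%), both with RMH35 for 520 (37.2%), tumour 07 alone with RMH4 and 08 with RMH35 for 219 (15.7%), the reverse for 140 (10.0%), and 371 (26.6%) fell elsewhere. Tumour 07 was in the high Rpph1 set and tumour 08 in the low set. The share over 9 genes chosen for their lack of overlap is a description.

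**Figure D3:**
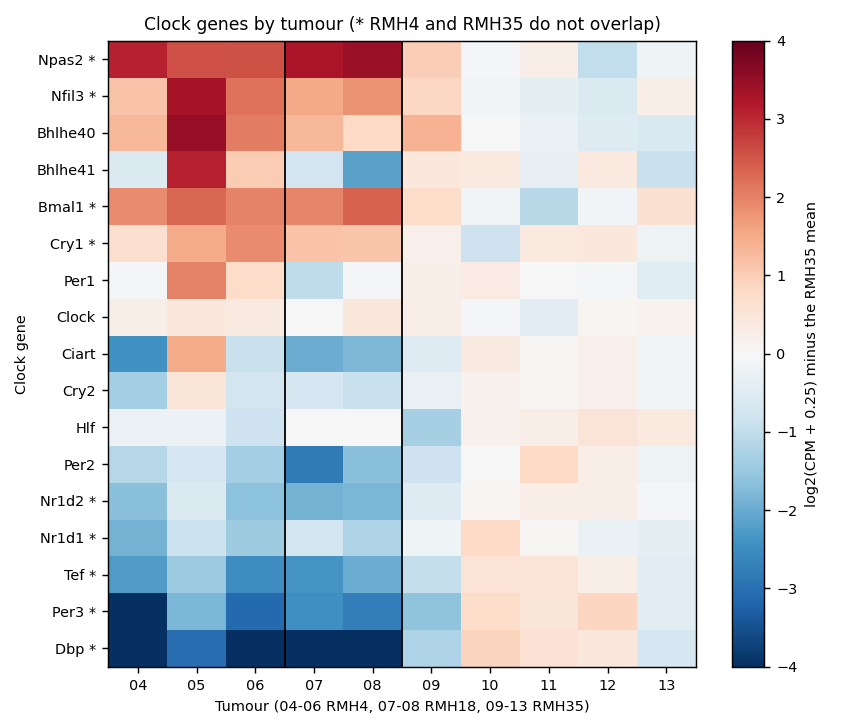
Heat map of 17 of the 18 clock genes by tumour, as log2(CPM + 0.25) minus the mean of the 5 RMH35 tumours, with an asterisk on the 9 genes whose families do not overlap. Dbp and Per3 were low and Bmal1, Npas2 and Nfil3 high in tumours 04 to 06, and tumours 07 and 08 shared these levels.

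Acute-phase genes, which hepatocytes induce under interleukin-6 and related cytokines, had higher estimates in RMH4. Of 25 tested, 0 passed edgeR at an adjusted p of 0.05, 18 lay higher at an unadjusted p of 0.05 (8.08% of all genes) and 0 lower, and DESeq2 called 8 higher (1.88%). Without tumour 04 edgeR called 8, and 146 of 15081 genes in all. Without tumour 09 it called 4, and 547 of 14471 genes in all. Higher without overlap were 3 (4.1% of all genes). Their median log2 fold change was 1.96. The per-tumour median against the RMH35 mean was 0.27, 1.45 and 2.34 in tumours 04, 05 and 06 and −0.44 to 0.56 in RMH35, so tumour 04 lay inside the RMH35 range and the list differed mainly through tumours 05 and 06. Without tumour 06 the median was 1.17, with the Rpph1 term 1.02, and without tag RMH4_5c 0.15. The 4 neutrophil markers tested moved with the same tumours, at medians of −0.02, 1.45 and 3.16 in tumours 04, 05 and 06, 1.91 in tumour 09 and −0.75 to 0.30 in tumours 10 to 13, and their part in the result was not tested. Tumours 07 and 08 had medians of −0.46 and 0.25.

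Single acute-phase genes showed the same spread among the RMH4 tumours. Saa1, a serum amyloid A apolipoprotein, was at 8.98, 30.6 and 895 CPM in RMH4 and at 19.8, 1.80, 3.16, 9.97 and 5.85 CPM in RMH35 (edgeR adjusted p = 0.15). Its paralogue Saa2, whose reads may be shared, was at 3.82, 17.4 and 944 CPM against 0.681 to 8.5 CPM (edgeR adjusted p = 0.137). Both were led by tumour 06, without which the estimates of 5.27 and 6.54 were 1.29 and 1.62, and overlapped between families in tumour 04. Lcn2, an iron-siderophore-binding lipocalin, did not overlap, at 111, 488 and 1562 CPM against 84.3, 18.3, 53.9, 41.0 and 88.7 CPM (3.65 ± 0.74, edgeR adjusted p = 0.117). Apcs, serum amyloid P, was at 26.4, 22.2 and 134 CPM against 5.12 to 12.7 CPM (2.87, edgeR adjusted p = 0.108), and Cebpd, a transcription factor of this response, at 16.7, 30.2 and 31.8 CPM against 3.70 to 12.5 CPM (1.99, edgeR adjusted p = 0.107). Lcn2, Apcs and Cebpd were named after their values were seen.

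Immediate early genes, the transcription factors that cells switch on within minutes of a stimulus, followed the same tumours. Of 17 tested, 0 were called by edgeR, 13 lay higher at an unadjusted p of 0.05 (8.08% of all genes), all 17 estimates lay above 0 and DESeq2 called 10 higher (1.88%; median 2.36). Fosb and Jund were higher without overlap, a count of 2 of 17 against 4.1% of all genes. Fos was at 6.79, 92.5 and 190 CPM in RMH4 and at 66.0, 1.51, 3.66, 1.25 and 2.64 CPM in RMH35 (2.70, edgeR adjusted p = 0.358), tumour 09 lying above tumour 04. Without tumour 09 the estimate for Fos was 5.45 (edgeR adjusted p = 0.0212), without tumour 06 it was 1.75, and with the Rpph1 term −0.70. Fosb was at 10.5, 10.6 and 27.6 CPM against 6.65, 0.535, 2.84, 0.572 and 0.966 CPM (2.84 ± 0.80, edgeR adjusted p = 0.171). Jund was at 345, 952 and 594 CPM against 142 to 270 CPM (1.68, edgeR adjusted p = 0.107), and was named after its values were seen. The list's median was 0.69, 3.02 and 2.77 in tumours 04 to 06, 1.65 in tumour 09 and −0.64 to −0.17 in tumours 10 to 13. Without tumour 09 edgeR called 15 of its members, Fosb included, and 547 of 14471 genes in all. Without tumour 04 it called 5 members, and 146 of 15081 genes in all. With the Rpph1 term the median was 0.64, without tag RMH4_5c it was 0.35, and tumour 07 of that set had 1.93 against 0.52 in tumour 08.

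Hypoxia targets, induced by HIF factors at low oxygen, also had estimates above 0 in 13 of 14 genes (median 1.24). EdgeR called 0, 9 lay higher at an unadjusted p of 0.05 (8.08% of all genes), 3 were higher without overlap (4.1%), and DESeq2 called 3 higher (1.88%). Without tumour 09 edgeR called 5 members, and 547 of 14471 genes in all. Without tumour 04 it called 1, and 146 of 15081 genes in all. Per-tumour medians were 0.62, 2.21 and 0.75 in tumours 04 to 06, 1.03 in tumour 09 and −0.44 to 0.04 in tumours 10 to 13, so tumour 09 lay above 2 of the 3 RMH4 tumours. Ndufa4l2, a mitochondrial HIF target that restrains respiration, was at 86.3, 105 and 20.5 CPM in RMH4 and at 11.4, 4.33, 2.08, 0.741 and 0.757 CPM in RMH35 (4.23 ± 0.89, edgeR adjusted p = 0.117). Vegfa, the angiogenic growth factor, was at 110, 527 and 172 CPM against 78.3 to 134 CPM and overlapped (1.35, edgeR adjusted p = 0.201, and an estimate of 0.42 without tumour 05). Bnip3, a mitophagy receptor, was at 82.2, 313 and 131 CPM against 27.7 to 65.5 CPM (1.91, edgeR adjusted p = 0.131), and P4ha2, a collagen prolyl hydroxylase, was the other member without overlap. Bnip3 and P4ha2 were named after their values were seen. Tumour 05 was the highest of the 8 for these 4 genes, and without it the list's median was 0.60. With the Rpph1 term the median was 0.62, and without tag RMH4_5c 0.30.

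ATF4 and unfolded protein response genes had a median of 0.85 over 17 tested, with 0 called by edgeR, 8 higher at an unadjusted p of 0.05 (8.08% of all genes) and 1 called higher by DESeq2 (1.88%). Without tumour 04 edgeR called 4, and 146 of 15081 genes in all. Atf4, the translation-controlled activator of amino acid stress genes, was at 300, 541 and 298 CPM against 191 to 234 CPM (0.85 ± 0.22, edgeR adjusted p = 0.154), with an estimate of 0.50 without tumour 05. Per-tumour medians were −0.08, 1.56 and 0.81 in tumours 04, 05 and 06 and −0.39 to 0.41 in RMH35, and without tumour 05 the list's median was 0.41. With the Rpph1 term it was 0.19, and without tag RMH4_5c −0.10. For each of these stress-related lists the RMH4 tumours differed among themselves by more than 1 log2 unit.

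**Figure D4:**
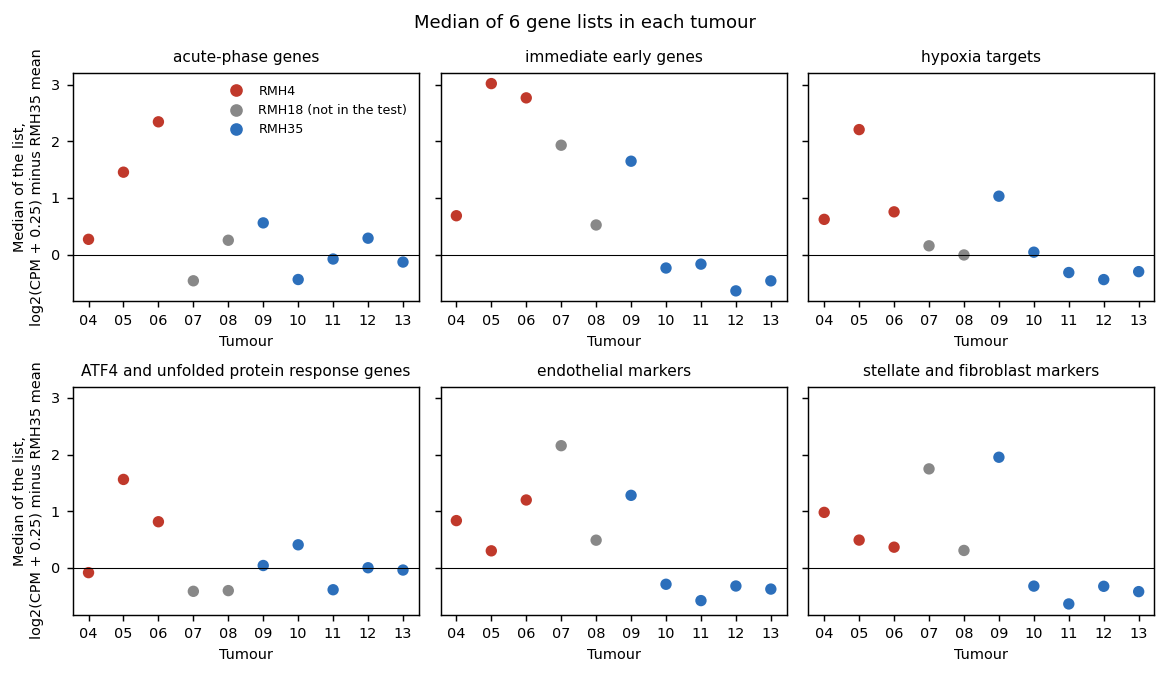
Median over the genes of each of 6 lists in each tumour, as log2(CPM + 0.25) minus the mean of the RMH35 tumours. Tumours 05 and 06 lay highest for the acute-phase (1.45 and 2.34) and immediate early (3.02 and 2.77) lists, and tumour 09 stood above the other RMH35 tumours for immediate early, endothelial and stellate genes.

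Stromal markers split the RMH35 tumours. Tumour 09 had medians of 1.28 for 12 endothelial and 1.95 for 11 stellate and fibroblast markers, while tumours 10 to 13 had −0.58 to −0.29 and −0.64 to −0.32. RMH4 tumours had 0.30 to 1.2 and 0.37 to 0.98, above tumours 10 to 13 and below tumour 09. All 12 endothelial and 8 of 11 stellate estimates lay above 0. Summed endothelial markers were 229 to 263 CPM in RMH4 and 89.9 to 377 CPM in RMH35, and stellate markers 480 to 996 CPM against 270 to 1942 CPM. The family medians were 0.54 and 0.17 with 0 called by edgeR (1 and 0 at an unadjusted p of 0.05, none by DESeq2). Without tumour 09 they were 1.23 and 1.13 with 5 and 2 called, in a fit where edgeR called 547 of 14471 genes in all. The stellate median lay between −0.02 and 0.02 without tumour 10, 11, 12 or 13, and without tag RMH35_1c the medians were −0.08 and −0.61. In whole tumours, fewer cells of a type and less RNA per cell cannot be told apart.

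Summed levels of immune and other markers overlapped between families. Summed macrophage markers were 202 to 553 CPM against 189 to 493 CPM. Of 12 macrophage markers 1 was without overlap, a share under the 9.52% of all genes. This was Cd68, a lysosomal protein, at 49.4, 68.4 and 48.8 CPM against 45.1, 12.0, 14.6, 14 and 20.5 CPM (edgeR adjusted p = 0.183). Neutrophil markers summed to 2.90 to 31.5 CPM against 1.33 to 16 CPM, and all 4 tested had estimates above 0 (median 2.14, 0 called by edgeR, 0 at an unadjusted p of 0.05 and 0 by DESeq2). Their median was 0.80 without tumour 06, −0.12 with the Rpph1 term and −0.67 without tag RMH4_5c. T and NK markers summed to 1.15 to 3.39 CPM against 0.681 to 8.08 CPM, B and plasma markers to 1.02 to 3.75 CPM against 1.07 to 5.95 CPM, cholangiocyte markers to 60.7 to 78.0 CPM against 13.9 to 147 CPM and erythroid markers to 220 to 899 CPM against 105 to 1792 CPM. No marker of these lists was at 0 in all 8 tumours. The part of these cells in the differences above was not tested.

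Erythroid genes contained a discordant pair. Hba-a1, an α-globin gene, was at 221, 51.6 and 66.3 CPM in RMH4 and at 193, 32.5, 11.9, 7.54 and 11.8 CPM in RMH35, with overlap. Its near-identical copy Hba-a2 was at 0.424, 0.128 and 0.183 CPM against 122, 19.5, 8.08, 4.82 and 6.11 CPM, without overlap (edgeR adjusted p = 0.136), and at 253 and 9.96 CPM in tumours 07 and 08. Reads of this pair cannot be assigned with certainty. Ifi202b, an interferon-inducible gene known to differ among inbred strains, had 0 CPM in all RMH4 and RMH18 tumours and 3.45, 0.778, 0.632, 0.370 and 0.209 CPM in RMH35. Of 12 strain-variable genes tested, Ifi202b was the only one without overlap, a share near the 9.52% of all genes, and 1 of 12 was at an unadjusted p of 0.05 against 16.4% of all genes.

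Of the engineered genes, Ctnnb1 was at 490, 323 and 350 CPM in RMH4 and at 256 to 489 CPM in RMH35 (0.12 ± 0.25, edgeR adjusted p = 0.834). The mouse gene Myc was at 60.5, 136 and 98.2 CPM against 69.0 to 87.9 CPM (0.29 ± 0.23, edgeR adjusted p = 0.553). Leaving out 1 tumour turned both signs: Ctnnb1 stood at −0.08 without tumour 04 and 0.02 without tumour 11, and Myc at −0.02 without tumour 05 and 0.54 without tumour 04. Human MYC had no line of its own in the table, and whether any of its reads were counted under mouse Myc was not tested. The families overlapped for both genes.

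β-catenin targets and pericentral genes, which mark the hepatocytes around the central vein, included genes at very high levels in every tumour. Of 18 tested, 0 were called by edgeR, with 0 higher and 6 lower at an unadjusted p of 0.05 (8.31% of all genes), 2 lower by DESeq2 (1.79%) and a median of −0.43. Lower without overlap were 2 of the 18, against 5.42% of all genes. Glul, glutamine synthetase, was at 14963, 11166 and 11808 CPM in RMH4 and at 5453 to 12988 CPM in RMH35 (0.48 ± 0.27, edgeR adjusted p = 0.404). Axin2, a negative feedback regulator of the pathway, was at 113 to 206 CPM against 93.3 to 199 CPM (adjusted p = 1). Lect2, a secreted hepatokine, was lower without overlap, at 224, 124 and 182 CPM against 383, 373, 542, 364 and 325 CPM (−1.17 ± 0.24, edgeR adjusted p = 0.117). The ubiquitin ligase gene Znrf3, which removes Wnt receptors, was the other member without overlap (−0.72, edgeR adjusted p = 0.174). Both stood at the RMH35 side in tumours 07 and 08. Lect2 and Znrf3 were named after their values were seen.

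Estimates lay above 0 for 1 of 11 bile acid genes and 2 of 11 organic ion transporters. Cyp7a1, the rate-limiting enzyme of bile acid synthesis, was at 174, 148 and 107 CPM in RMH4 and at 259, 355, 395, 701 and 389 CPM in RMH35 (−1.55 ± 0.33, edgeR adjusted p = 0.118). It was the one of 11 bile acid genes without overlap, a share near the 9.52% of all genes, and Cyp8b1, the sterol 12-hydroxylase, had −2.10 with overlap (edgeR adjusted p = 0.28). Of 11 organic ion transporters tested, Slco1a4, Slc22a30 and Slc22a27 were lower without overlap (5.42% of all genes). Slco1a4, an anion uptake carrier, was at 36.8, 24.9 and 27.1 CPM against 89.7, 92.4, 42.5, 91.4 and 81.6 CPM (−1.43, edgeR adjusted p = 0.103). Slc22a7, an organic anion transporter, had an estimate of −2.46 with overlap, and −1.55 without tumour 11. Abcc2, the canalicular exporter of conjugates, was at 324, 249 and 268 CPM against 483, 545, 556, 677 and 811 CPM (−1.13 ± 0.21, edgeR adjusted p = 0.0995), whereas Gadd45b and Cyp3a13 were higher without overlap among the 13 CAR and PXR targets (4.1% of all genes). Cyp3a11, the main drug-metabolising Cyp3a, had 0.64 with overlap. EdgeR called 0 of the bile acid genes, the ion transporters and the CAR and PXR targets, with 3, 5 and 4 at an unadjusted p of 0.05 (16.4% of all genes) and 1, 2 and 3 by DESeq2 (3.67%).

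Of 23 proliferation genes 0 were called by edgeR, and 22 estimates lay below 0 (median −0.41). The count was 8 lower at an unadjusted p of 0.05 (8.31% of all genes), 4 lower without overlap (5.42%) and 3 lower by DESeq2 (1.79%). The median was −0.22 with the Rpph1 term and 0.56 with that term and tumour 04 in the high set. The replicative helicase gene Mcm2 was at 20.7, 16.4 and 20 CPM in RMH4 and at 39.3, 29.6, 27.1, 39.0 and 41.8 CPM in RMH35 (−0.89, edgeR adjusted p = 0.123). Mcm3 and Mcm4, subunits of the same helicase, and Tyms, thymidylate synthase, were also without overlap, at −0.96, −1.09 and −0.66. Mki67, the proliferation marker, was at 28.3, 33.9 and 50.3 CPM against 44.6 to 80.0 CPM with overlap (−0.76, edgeR adjusted p = 0.197). MYC-driven ribosome biogenesis genes had a median of 0.10 over 17 genes, with 0 at an unadjusted p of 0.05, 0 called by edgeR and 0 by DESeq2. That median was −0.12 without tumour 06, 0.28 without tumour 04 and 0.18 without tumour 05 or 13, −0.19 without tag RMH4_5c and −0.09 with the Rpph1 term. Npm1, a nucleolar protein, had an estimate of 0.29 without overlap.

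EdgeR called 0 of the growth hormone signalling, male-biased and female-biased genes, with 3, 5 and 2 at an unadjusted p of 0.05 (16.4% of all genes) and 2 of each list by DESeq2 (3.67%). Without overlap were 1 of 10, 2 of 15 and 2 of 6, and the first share is near the 9.52% of all genes. The 1 growth hormone signalling gene was Igfbp1, a secreted binder of insulin-like growth factors that insulin represses. It was at 2893, 5945 and 2306 CPM in RMH4 and at 1174, 1025, 867, 334 and 1355 CPM in RMH35 (1.97, edgeR adjusted p = 0.131), without overlap, and at 2847 and 2208 CPM in tumours 07 and 08. For Ghr and Igf1, receptor and main target of the hormone, the families overlapped, with estimates of −0.57 and 0.20. Without tumour 04 these were −1 and −0.43, and without tumour 05 Igf1 stood at 0.69. Among 15 male-biased genes tested, Hsd3b5, a male-specific liver steroid enzyme, was at 0 in all 3 RMH4 tumours and at 0.470 to 1.15 CPM in RMH35 (edgeR adjusted p = 0.093), and Nudt7, a peroxisomal CoA hydrolase, was lower without overlap. For Mup20 and Mup3, urinary proteins, the families overlapped, and the estimates of −1.23 and −2.70 became −4.51 and −5.39 without tumour 06, and that of Mup20 −0.49 without tumour 12. The male-biased median of −0.49 was −1.15 without tumour 06 and −0.13 without tumour 12. Of 6 female-biased genes tested, Cyp3a16 was higher and Cyp2a4 lower without overlap.

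Lipid genes without overlap numbered 1 of 10 for lipogenesis, 2 of 19 for fatty acid oxidation and 0 of 15 for cholesterol synthesis, shares near or under the 9.52% of all genes. In the 10 lipogenesis genes (median −0.64), Fasn and Acaca, the synthase and the carboxylase of fatty acid synthesis, had −0.71 and −0.59 with overlap (−1.28 and −1.1 without tumour 04), and Thrsp was lower without it. That median was −1.22 without tumour 04, −0.41 without tumour 05 and −0.34 without tumour 06, and −0.22 with the Rpph1 term. In the 19 PPARα and fatty acid oxidation genes (median 0.15, but 0.06 without tumour 05 and 0.24 without tumour 04), Cpt1a, the mitochondrial entry step, was lower and Pdk4, which blocks pyruvate oxidation, higher without overlap, at −1.09 and 1.74 (edgeR adjusted p = 0.131 and 0.125). In the 15 cholesterol synthesis genes (median −0.37), Hmgcs1, an early synthase of the pathway, had −0.30, with 0 genes at an unadjusted p of 0.05, 0 called by edgeR and 0 by DESeq2. The cholesterol median was −0.98 without tumour 04, −0.06 without tumour 05, −0.10 without tumour 06 and 0.03 with the Rpph1 term, and Hmgcs1 stood at −1.1 without tumour 04 and 0.02 without tumour 05.

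MHC class I genes had estimates below 0 in 14 of 15 (median −0.69), with 6 lower at an unadjusted p of 0.05 (8.31% of all genes), 0 called by edgeR or DESeq2 and none without overlap. Without tag RMH35_1c the median was −0.04. Per-tumour medians were −0.59, −0.76 and −0.20 in RMH4, −0.66 and −0.57 in tumours 09 and 10, and 0.66, 0.41 and −0.0013 in tumours 11 to 13. H2-K1 and H2-D1, the classical heavy chains, had −0.53 and −0.35 (edgeR adjusted p = 0.399 and 0.53), and reads of this polymorphic family are hard to place. All 7 class II estimates lay below 0 (median −0.82), H2-Aa and H2-Ab1 at −0.82 and −0.77, and the median was −0.43 without tumour 05 (the genes −0.42 and −0.46) and −0.40 without tag RMH35_1c. Interferon-stimulated genes had a median of −0.19 over 19 genes, and it was −0.46 without tumour 06, −0.02 without tumour 11, −0.05 without tumour 04 or 12, −0.06 without tumour 05 and 0.15 without tag RMH35_1c. Without tumour 09 it was 9.28e-05.

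The remaining lists had medians from −0.55 to 0.79 with 0 genes called by edgeR. At an unadjusted p of 0.05 a list had 0 to 3 genes (16.4% of all genes), and by DESeq2 0 or 1 (3.67%). At most 2 members a list were without overlap, 1 of 7 metallothionein and zinc genes, 2 of 21 glutathione S-transferases, 1 of 13 p53 targets and 1 of 12 hepatocyte transcription factors, against 9.52% of all genes, so the members named below as without overlap describe single genes and not the lists. Metallothionein and zinc genes had 0.79 over 7, with Mt1 and Mt2 at 2.40 and 2.07 and the manganese exporter Slc30a10 without overlap; the median was 0.28 without tumour 06, 0.30 with the Rpph1 term and −0.04 without tag RMH4_5c. Periportal genes had −0.51 over 14, with Cyp2f2 and Hal at −1.93 and −0.63. That median was −1.23 without tumour 06, −0.22 without tumour 05 and 0.35 with the Rpph1 term, and without tumour 12 Cyp2f2 stood at −0.41 and Hal at 0.75. Oncofetal and imprinted genes had −0.55 over 17, and H19, an imprinted RNA, ran from 1.66 to 79.4 CPM in RMH4 and from 5.2 to 7176 CPM in RMH35 (edgeR adjusted p = 0.268), while Afp, α-fetoprotein, had −2.29. The oncofetal median was −0.04 without tumour 09, the tumour with the most H19, −0.91 without tumour 04 and −0.14 without tag RMH35_1b, and Afp stood at −1.33 without tumour 13 and −3.45 without tumour 06. NRF2 targets had −0.17 over 11, but 0.17 without tumour 13, −0.03 without tumour 05 and −0.04 without tumour 04. Glutathione S-transferases had −0.21 over 21, with Gstp1 and Gstz1 lower without overlap, but −0.01 without tumour 05, −0.44 without tumour 04 and −0.34 without tumour 06. The p53 targets had −0.10 over 13 (0.01 without tumour 04, 0.03 without tumour 09 and −0.25 without tumour 06), with Cdkn1a, the cell-cycle inhibitor p21, at 1.25 and Bbc3 higher without overlap. Hepatocyte transcription factors had −0.19 over 12 (−0.05 without tumour 04, −0.08 without tumour 12 and 0.13 without tag RMH35_1c), Hnf4a at −0.23, with Foxa3 higher without overlap. Y-linked genes had 0.17 over 4, Ddx3y and Eif2s3y at 0.30 and 0.25, and their levels were low in 1 tumour of each family. Their medians were 1.10, −2.30 and 0.74 in tumours 04, 05 and 06 and ran from −1.81 in tumour 13 to 0.91 in RMH35, and the list's median was 0.69 without tumour 05 and −0.38 without tumour 04. Ddx3y was at 24.7, 1.53 and 18.5 CPM in RMH4 and at 10.7, 14.6, 18.6, 14.1 and 2.48 CPM in RMH35. The hepatocyte markers Alb and Ttr had −0.25 and −0.49.

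**Figure D5:**
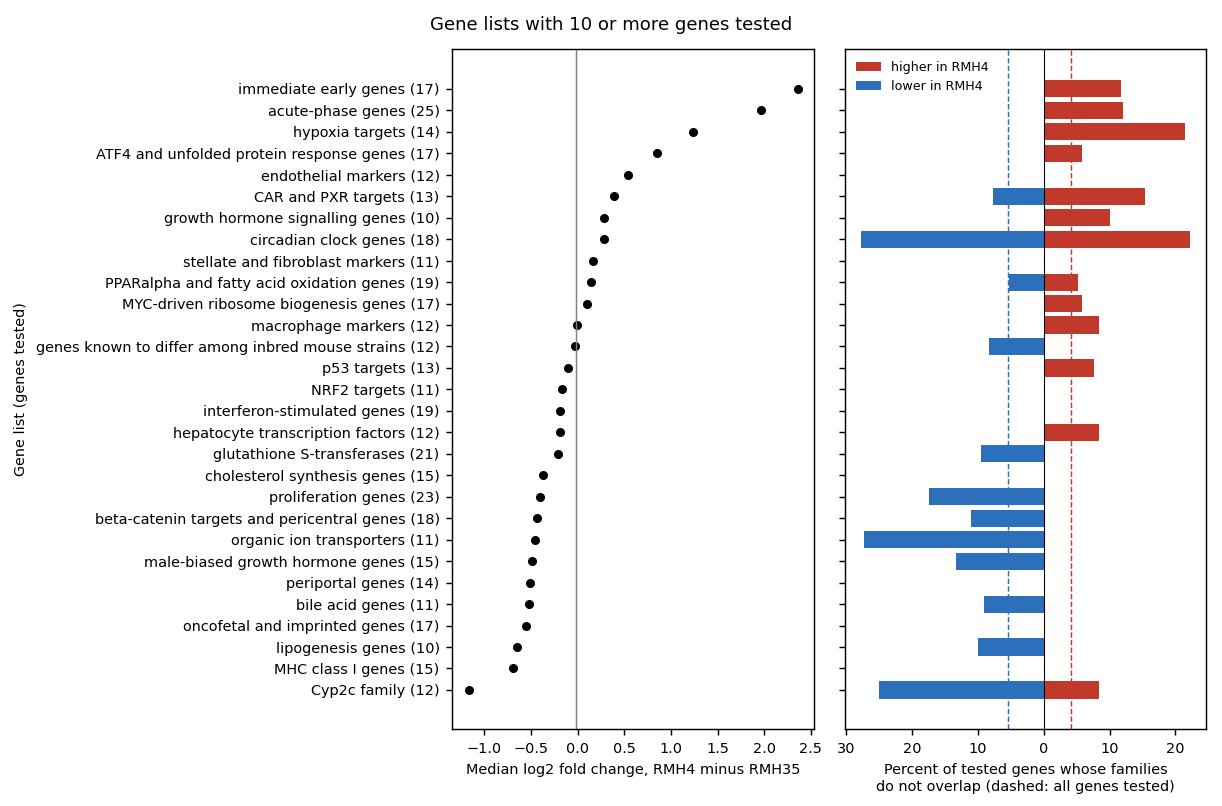
For each of 29 lists with at least 10 genes tested, the median log2 fold change (RMH4 minus RMH35) and the share of genes whose families do not overlap, higher and lower apart. For all genes tested, a grey line marks the median (−0.02) and dashed lines the shares (4.1% higher and 5.42% lower). Immediate early and acute-phase genes had the highest medians (2.36 and 1.96), and clock genes the highest share without overlap (9 of 18).

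Outside these lists, a few genes near to the threshold were chosen after their values were seen. Zbtb16, the transcriptional repressor PLZF, was at 33.7, 79.3 and 37.0 CPM in RMH4 and at 14.6, 10.3, 9.03, 12.1 and 9.08 CPM in RMH35 (2.18 ± 0.29, edgeR adjusted p = 0.0677). Il17rb, an interleukin-17 family receptor, was at 51.3, 84.5 and 54.1 CPM against 14.8 to 26.9 CPM (1.65 ± 0.24, edgeR adjusted p = 0.0831). In the lower direction, Tert, the telomerase catalytic subunit, was at 5.37, 4.66 and 4.75 CPM against 9.78 to 13.8 CPM (−1.30 ± 0.20, edgeR adjusted p = 0.093). Rpa1, the large subunit of the single-strand DNA binding complex, was at 73.5, 45.4 and 52.0 CPM against 120 to 192 CPM (−1.43 ± 0.22, edgeR adjusted p = 0.093). Tumours 07 and 08 were at 184 and 133 CPM for Rpa1 and at 7.05 and 7.54 CPM for Tert, between the families or with RMH35. Irs1, the insulin receptor substrate, was at 13.8, 6.90 and 7.85 CPM against 22.4 to 49.0 CPM (−1.96 ± 0.35, edgeR adjusted p = 0.098).

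Tags were also compared within each family. Between the tags of RMH35, 14 of 14674 genes were called (0.0954%), 7 in each direction, with 1541 at an unadjusted p of 0.05. Igtp, an interferon-inducible GTPase, rose in RMH35_1c, at 181, 154 and 188 CPM in tumours 11 to 13 against 16.3 and 18.6 CPM in tumours 09 and 10 (3.32 ± 0.29, edgeR adjusted p = 0.00835). In RMH4 it was at 25 to 42.9 CPM, so the RMH35 tumours lay on both sides of RMH4. Tgtp1, a relative in the same GTPase group, rose likewise. Wdr72, a WD repeat protein, had 0 reads in tumours 11 to 13, was at 6.58 and 5.79 CPM in tumours 09 and 10, and was present in all RMH4 tumours. Aqp1, a water channel, fell in RMH35_1c. The count of 14 became 0 without tumour 11 (1223 at an unadjusted p of 0.05), 423 without tumour 10 and 5 without tumour 09, and DESeq2 called 373.

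Between the tags of RMH4, tag RMH4_5b held tumour 04 alone, which was assumed to vary like the others, so a difference of the tag and one of that tumour cannot be told apart. In this comparison 2 genes were called (0.0136%), with 1093 at an unadjusted p of 0.05 and 141 by DESeq2. Rpl29, a ribosomal protein gene with many processed copies, was at 1.56 CPM in tumour 04 and at 65.3 and 53 CPM in tumours 05 and 06 (5.24 ± 0.38, edgeR adjusted p = 0.015). It was at 45.1 to 113 CPM in every RMH35 tumour. Gm9826, a predicted gene, was lower in tumours 05 and 06, at 0.511 and 0.730 CPM against 23.3 CPM in tumour 04, and was also at 19.8 and 32.1 CPM in RMH35_1b but at most 0.674 CPM in RMH35_1c. The pair of calls became 0 without tumour 05, 06, 11, 12 or 13.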

How the data were processed

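The authors deposited raw counts per Ensembl gene for whole tumours. The submitters' processing notes name TopHat2, HTSeq and GRCm38, and their settings, and whether counting used strand, are not given in the sources used here, so overlapping and antisense genes cannot be told apart with certainty. Libraries came from a stranded poly(A) kit. Of 39179 identifiers, 34199 (87.3%) took a symbol from GENCODE M39 by identifier, and positions came from RefSeq on GRCm38.p6. The 5 summary lines, 51.7% to 59.9% of all lines' counts in these tumours, were left out of library sizes. A column was matched to a tumour where its library number equalled the number in the title, which is assumed, and 9 columns that matched no tumour were not used.

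Counts of the 8 tumours were filtered by expression, scaled by TMM (factors 0.954 to 1.10) and tested with edgeR 4.0.16 (glmQLFit) in R 4.3.3 with family as the only term and Benjamini-Hochberg adjusted over 14674 genes. DESeq2 1.42.0 and limma 3.58.1 gave alternatives. CPM values are counts over TMM-scaled totals. The common coefficient of variation between tumours of a family was 0.368, and 3 counts corresponded to 0.0812 to 0.257 CPM. Library measures were compared by exact permutation with scipy 1.17.1. The script was tested on simulated data. Named were Ctnnb1, Myc and Rpph1; the 15 called genes with the largest change each way among those with a symbol, a mean of at least 4 CPM and no overlap; and, in each list, up to 4 called members and the first 2. Some genes that this rule names are not reported here. The pair of families and the gene lists were chosen with earlier results of these data known, and only the placing of a tumour in a family came from the labels.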

Additional observations from a re-analysis of the deposited data

Results flagged for a closer look

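In 6 of 122 values checked among the 5 RMH35 tumours (4.92%, where chance flags about 5 in 100, or 6.1 values), one tumour lay far from the others, with a gap to its neighbour above 0.71 of the range. Hal, the histidine ammonia-lyase of periportal hepatocytes, was highest in tumour 12, at 3.47 against 0.64 log2 CPM in the next tumour (gap 0.828 of the range). Of the 6 values, 4 concerned tumour 09. There Fos was at 6.05 against 1.91 log2 CPM (0.736), and the endothelial genes Pecam1 and Cdh5 were at 5.69 against 3.15 log2 CPM (0.808) and at 6.28 against 3.38 log2 CPM (0.8). The collagen gene Col1a2 was at 8.75 against 6.36 log2 CPM there (0.739). Ddx3y, a Y-linked helicase gene, was lowest in tumour 13, at 1.37 against 3.44 log2 CPM (0.724). No cause of these values was tested.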

How the results depend on the processing

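Between the families, the 6 calls became 609 by the DESeq2 Wald test, 37 with no filter on low counts, 19 with a coefficient per tag, 532 without tag RMH35_1b and 146 without tag RMH4_5b. They became 0 on counts summed per tag (1249 genes at an unadjusted p of 0.05), with a term for the Rpph1 set (1124), with that term and tumour 04 in the high set, chosen after seeing the data (1048), and without tag RMH4_5c (858). Leaving out each tumour gave 2 to 547. Between the tags of RMH35, the 14 calls became 373 by DESeq2, 253 with no filter and 0 to 423 as tumours were left out. Between those of RMH4, the 2 became 141, 36 and 0 to 2. With the Rpph1 term and tumour 04 in the high set, the log2 fold changes of Lrrc24, ENSMUSG00000065922 and ENSMUSG00000088595 turned to −0.05, −0.283 and −0.145, whereas the planned Rpph1 term gave 5.15, 3.11 and 2.71. In the former setting the set effect came only from tumour 07 against tumour 08. The cause of these shifts was not tested. Over 116 named genes and 21 settings, 2428 values were checked: 2059 kept direction and side of the threshold, 155 gained and 47 lost a call, 164 uncalled estimates changed sign and 3 called ones reversed. The 3 reversals were those of Lrrc24 and both identifiers with tumour 04 in the high set. No paired analysis was possible because the tumours of the 2 families share no replicate numbers. Depth limits genes near 3 counts, such as Snord13 in RMH35. Of 40 list medians, 26 changed sign in at least 1 setting and 14 kept it.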
